A study of Mus musculus with 8 samples.

Results

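The mouse Iroquois genes Irx1, Irx2 and Irx4 on chromosome 13 and Irx3, Irx5 and Irx6 on chromosome 8 were described by the islands of histone H3 lysine 27 trimethylation (H3K27me3) over them in mouse liver. They were taken as 2 mm9 windows, chr13:72050001-73450000 and chr8:94310001-95000000, which hold 140 and 69 bins of 10 kb, or 209 of the 265480 bins of the genome. The chromosome 8 window ended before Irx6, so Irx6 and the stretch leading to it were measured as segments outside the window. Each gene was given a segment of 100 kb, placed by approximate mm9 positions from general knowledge because no mm9 gene annotation was in use. The stretches between gene segments inside a window are called deserts: in the GRCm38.p6 gene order no protein-coding gene lies between Irx1 and Irx2, Irx2 and Irx4, or Irx3 and Irx5. None lies between Irx5 and Irx6 either, but that stretch ran past the window. Neither it nor Irx6 entered the comparison of gene segments with deserts. Counting genes of any kind, the GRCm38.p6 order holds 5 between Irx1 and Irx2, 6 between Irx2 and Irx4 and 8 between Irx3 and Irx5. The outer neighbours there were Adamts16 beside Irx1, Ndufs6 beside Irx4, Fto beside Irx3 and Mmp2 beside Irx6.

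The groups were livers of male CD-1 mice aged 7 weeks, from individual animals, given TCPOBOP at 3 mg/kg or its vehicle, 1% DMSO in corn oil, and collected 3 h later. TCPOBOP activates CAR, a nuclear receptor of hepatocytes, and the design compares the mark with and without it. Fragments of 600 to 1100 bp, digested to 500 bp, gave 3 TCPOBOP and 3 vehicle libraries from 6 livers. Fragments over 1100 bp, digested to 200 bp, gave 1 more library from the ChIP sample of TCPOBOP replicate 1 and 1 from that of vehicle replicate 1. Whole liver was used, so fewer cells with the mark and less mark per cell cannot be told apart.

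The 3 TCPOBOP livers listed 6295 to 13759 islands over 174 to 280 Mb, and the 3 vehicle livers 10057 to 14748 islands over 196 to 340 Mb. The lists of longer fragments held 22077 islands over 676 Mb with TCPOBOP and 17577 over 654 Mb with vehicle. No read counts came with the lists, so the depth behind each value is unknown and the number of livers limits the precision. A covered percent is the share of a segment's length under islands, and 0% means that no island is listed there, not that the mark was absent. An approximate window over Alb and Afp, genes of hepatocyte-secreted proteins, was covered to 0% in each of the 8 libraries.

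1 gap bears on the Irx1 values. At chr13:72098000 the lists of TCPOBOP replicate 1 and vehicle replicate 1 held no island, in either fragment class, while the other 4 livers held an island there. The stretch free of islands was 936 kb long in TCPOBOP replicate 1 (chr13:71255601-72191600) and 926 kb in vehicle replicate 1 (chr13:71267201-72193200). In the longer fragments it was 123.6 kb in the TCPOBOP liver and 100.8 kb in the vehicle liver. Bins covered to at least 50% in the other 4 livers and at 0% in these 4 lists numbered 6 of 247225 on the autosomes (0.00243%), and 2 of the 6 lay in the Irx1 segment. Rows of these lists may be missing here, so the gap is not read as a loss of the mark, and values resting on Irx1 are also given without these 2 livers.

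Iroquois genes encode homeodomain transcription factors of the TALE class that pattern many embryonic tissues. Polycomb repressive complex 2 lays down H3K27me3, typically over CpG-rich promoters of developmental regulators that a tissue keeps silent, and broad domains of the mark often span such gene clusters. Deserts between Iroquois genes hold many conserved enhancers, and in humans an intron of FTO contacts the promoter of IRX3.

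Promoters of 3 of the 6 genes, Irx2, Irx4 and Irx3, were in the RefSeq promoter table of build GRCm38.p6, and they are shown because CpG content is a known feature of Polycomb targets. They are the 250 bases before each gene's start, 5′ to 3′ on the gene's own strand, with each CG dinucleotide in capitals. Irx2 lies on the plus strand at chr13:72628570-72628819, Irx4 on the plus strand at chr13:73260247-73260496, and Irx3 on the minus strand at chr8:91801655-91801904. These positions are not in mm9 and cannot be laid over the island positions.
Irx2: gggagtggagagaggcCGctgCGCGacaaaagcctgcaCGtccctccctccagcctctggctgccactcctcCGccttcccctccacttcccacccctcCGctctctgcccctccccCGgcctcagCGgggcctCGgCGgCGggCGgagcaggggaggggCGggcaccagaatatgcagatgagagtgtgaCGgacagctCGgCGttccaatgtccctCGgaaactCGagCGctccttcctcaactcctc
Irx4: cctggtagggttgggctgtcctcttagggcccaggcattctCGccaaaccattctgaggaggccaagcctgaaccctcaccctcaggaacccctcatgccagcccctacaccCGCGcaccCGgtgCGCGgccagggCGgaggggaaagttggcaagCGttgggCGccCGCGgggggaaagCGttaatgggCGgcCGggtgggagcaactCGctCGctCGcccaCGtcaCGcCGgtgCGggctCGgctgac
Irx3: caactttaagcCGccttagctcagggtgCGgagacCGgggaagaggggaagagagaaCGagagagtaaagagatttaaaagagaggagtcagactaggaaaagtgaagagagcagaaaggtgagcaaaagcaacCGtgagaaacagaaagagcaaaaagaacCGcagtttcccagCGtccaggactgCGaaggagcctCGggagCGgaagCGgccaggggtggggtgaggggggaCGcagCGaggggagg

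CG reads the same on both strands and does not overlap itself, and 92.1% of 32841 promoters of this length held at least 1. The Irx2 promoter held 19, the Irx4 promoter 22 and the Irx3 promoter 13, against a median of 6. At least as many were held by 19.7% of all promoters for Irx2, 14.8% for Irx4 and 31.5% for Irx3. GC content was 68.4% for Irx2, 68.8% for Irx4 and 56% for Irx3, with a median of 52.4%. Whether island cover followed these counts was not tested.

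Islands covered both clusters in part, and the chromosome 8 cluster more densely than that on chromosome 13. The chromosome 8 window was covered to 63.5, 68.3 and 34.8% in the TCPOBOP livers, against 90.8, 79.9 and 42.4% in the vehicle livers. The chromosome 13 window was covered to 25.8, 25.1 and 11.6% in the TCPOBOP livers, against 25.1, 31.1 and 15.6% in the vehicle livers. In both windows replicate 3 had the lowest cover of its treatment, and its list was also the shortest of its treatment in covered length. The chromosome 8 window exceeded the chromosome 13 window by 40.9 ± 15.5 percentage points (SD, n = 6), in 6 of 6 livers (two-sided exact sign-flip permutation p = 0.031, the smallest that 6 livers allow). This comparison was added after the values were seen.

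Both windows were covered more than the rest of their chromosome. The chromosome 8 window averaged 63.3 ± 21.5% and the rest of chromosome 8 10.0 ± 2.59%, a difference of 53.3 percentage points that ranged from 28.2 to 76.9 (SD, n = 6, exact sign-flip permutation p = 0.031). The chromosome 13 window averaged 22.4 ± 7.27% and the rest of chromosome 13 9.0 ± 2.0%, a difference of 13.4 percentage points that ranged from 5.03 to 21.0 (SD, n = 6, exact sign-flip permutation p = 0.031). Each difference was positive in 6 of 6 livers. In the longer fragments the chromosome 8 window was covered to 93.2% with TCPOBOP and 98.1% with vehicle, and the chromosome 13 window to 74.3% and 78.5%.

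**Figure D1:**
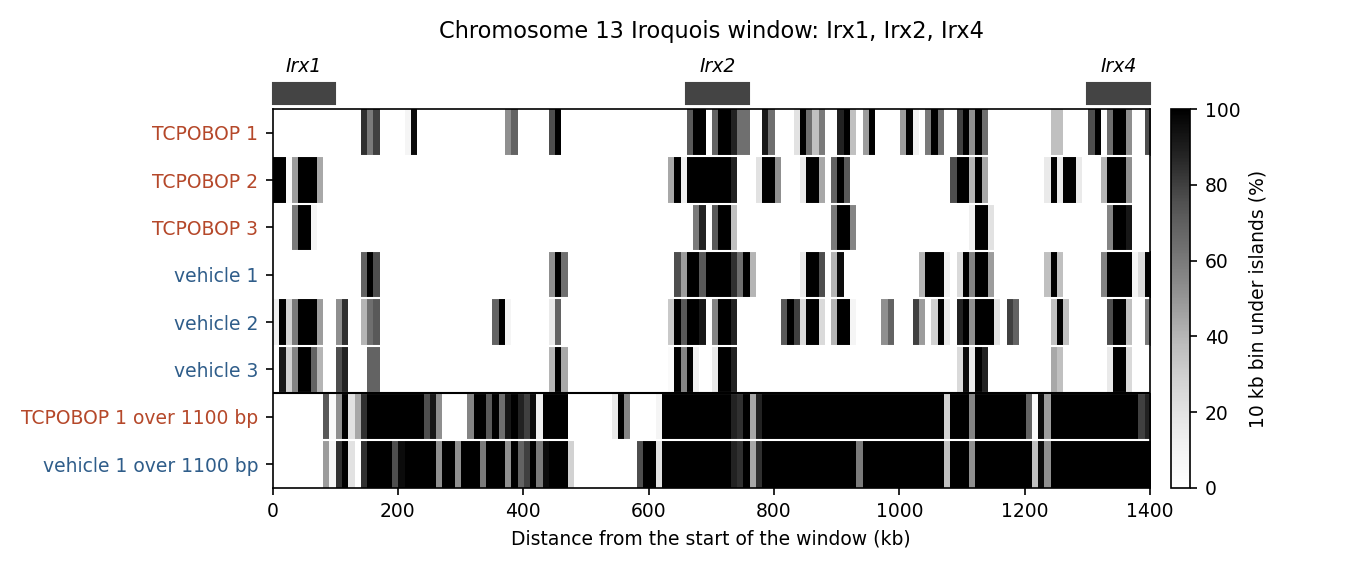
Covered percent of each 10 kb bin of the chromosome 13 window, from white (0%) to black (100%), against distance from the window's start in kb; each row is a library, with the 6 livers above the line and the longer fragments below it, and grey boxes mark the approximate gene segments. Dark bins recur over Irx2 and Irx4 in all 6 livers, while the Irx1 segment is white in TCPOBOP 1 and vehicle 1.

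Irx1, which is expressed in developing limb and lung, was covered to 0, 59.6 and 26.8% in the TCPOBOP livers, against 0, 54.8 and 48.4% in the vehicle livers. The 2 zeros are the livers with the gap described above. Over the other 4 livers its cover averaged 47.4 ± 14.5% (SD), between 26.8 and 59.6%. In these 4 livers the islands shared the 25.6 kb of chr13:72085201-72110800. By score, the authors' own value for each island and used here to rank islands within a list, they stood at rank 582 of 10197 and 796 of 6295 in TCPOBOP replicates 2 and 3. In vehicle replicates 2 and 3 they stood at rank 452 of 14748 and 378 of 12430. The Irx1 island was thus among the upper 12.6% of its list in each of the 4 livers that held it. In the longer fragments 7.6% of the segment was covered in the TCPOBOP liver and 5.6% in the vehicle liver, by an island near its far end that ranked 18977 of 22077 and 17421 of 17577.

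Irx2, known from chick for a part in forming the cerebellum, carried the highest-scoring island of the chromosome 13 window in 6 of 6 livers. Its segment was covered to 75.6, 78.8 and 45.6% in the TCPOBOP livers, against 92.0, 63.6 and 41.6% in the vehicle livers, and treatments overlapped. The Irx2 island stood at rank 255 of 13759, 186 of 10197 and 459 of 6295 in TCPOBOP replicates 1, 2 and 3, with widths of 35.6, 80 and 30.8 kb. In vehicle replicates 1, 2 and 3 it stood at rank 521 of 10057, 273 of 14748 and 264 of 12430, with widths of 50.8, 34.4 and 30.4 kb. The island began between 72708801 and 72758401 in the 6 livers. Its end fell within 400 bp of 72788800 in 5 of 6 livers and in both lists of longer fragments, so the edge toward Irx4 recurred more closely than the other. A further island began soon after it, at 72793601 in TCPOBOP replicate 1 and vehicle replicate 1 and at 72791601 in both longer lists. There the edge was a short break in cover, while in the other livers the next island began at 72828001 or later. The 25.2 kb of chr13:72758401-72783600 lay under islands in all 8 libraries.

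Irx4, a transcription factor of the ventricular myocardium, was covered to 56.8, 39.2 and 34.8% in the TCPOBOP livers, against 58.8, 37.2 and 24.0% in the vehicle livers. Its highest-scoring island was 24.0 to 46.4 kb wide in the 6 livers and ranked between 867 and 1128, among the upper 6.30 to 14.5% of the lists. The 24.0 kb of chr13:73388401-73412400 lay under islands in all 8 libraries, and in vehicle replicate 3 this stretch was the whole island. By rank the Irx4 island stood below the Irx2 island in each of the 6 livers. In the longer fragments it stood above, at rank 301 against 341 with TCPOBOP and 277 against 293 with vehicle. By score per kb it stood below there too, at 1436 against 823 with TCPOBOP and 1247 against 544 with vehicle.

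The chromosome 13 deserts were covered unevenly. Over the 6 livers, cover averaged 8.29% between Irx1 and Irx2 and 23.6% between Irx2 and Irx4. The rest of chromosome 13 averaged 9.0%, so only the first desert was covered as thinly as that. Single deserts were not tested against the rest of the chromosome. Between Irx1 and Irx2 islands covered 11.1, 2.79 and 0% in the TCPOBOP livers, against 10.4, 13.9 and 11.5% in the vehicle livers, and 39 of its 56 bins held no island in any liver. Between Irx2 and Irx4 the cover was 30.7, 29.3 and 10.1% with TCPOBOP, against 26.3, 37.4 and 7.48% with vehicle. The highest-scoring island lying wholly in these deserts ranked between 1538 and 3897, below the best gene island in 6 of 6 livers. 1 desert stretch, the 15.6 kb of chr13:73168801-73184400, lay under islands in all 8 libraries, and an island began within 400 bp of 73167601 in 6 of the 8 lists. The longer fragments covered 60% of the first desert with TCPOBOP and 69.7% with vehicle, and 93.2% of the second with TCPOBOP and 93.7% with vehicle. The top island of the window in the TCPOBOP list of longer fragments was a 301.2 kb island inside the second desert (chr13:72821201-73122400), at rank 237.

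**Figure D2:**
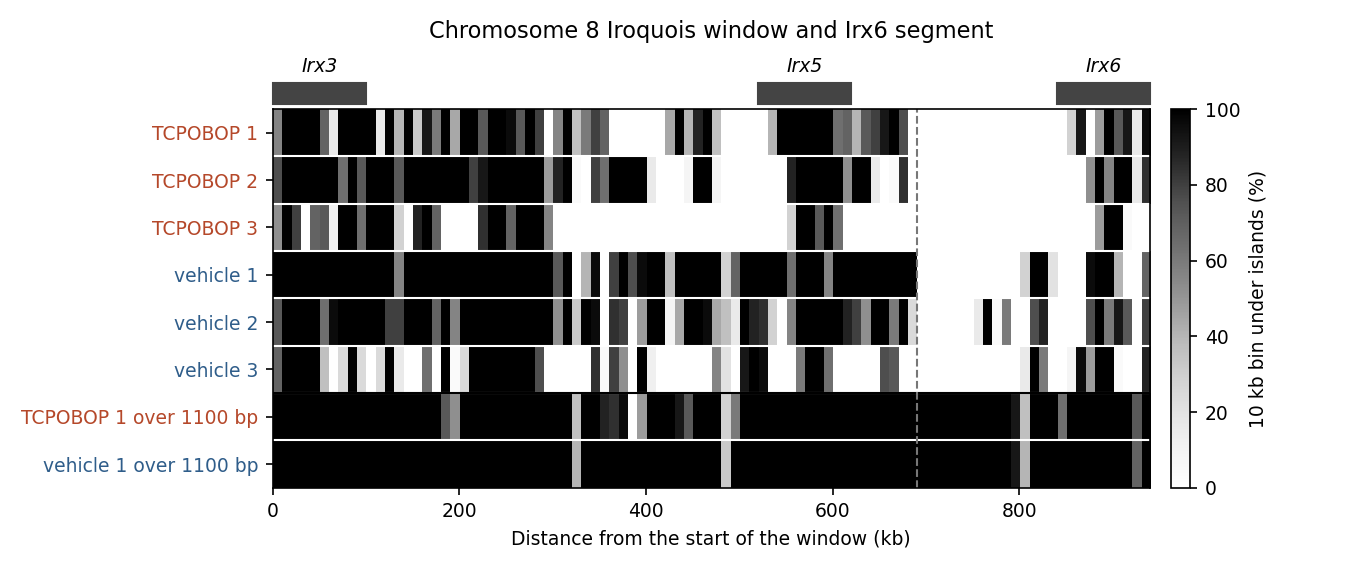
Covered percent of each 10 kb bin of the chromosome 8 window and, right of the dashed line, of the stretch up to Irx6 and its segment, from white (0%) to black (100%), against distance from the window's start in kb; rows are libraries as labelled, with the longer fragments below the line. Dark bins recur over Irx3, Irx5 and the middle of the desert in all 6 livers, and the bins before Irx5 are white in the 3 TCPOBOP livers and dark in the 3 vehicle livers.

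Irx3, which acts in limb patterning and in the heart's conduction system, had the most covered segment of the 6 genes. That segment began at 94310001, the start of the window, and ran on toward the desert, so its cover depends on this placement. Its segment was covered to 84.0, 91.2 and 64.8% in the TCPOBOP livers, against 100, 93.2 and 65.2% in the vehicle livers. Its island ranked between 91 and 346 in the 6 lists and carried the highest score of the chromosome 8 window in the 3 vehicle livers. The island was 52.4, 71.2 and 23.2 kb wide in TCPOBOP replicates 1, 2 and 3, against 154.8, 53.6 and 50.4 kb in vehicle replicates 1, 2 and 3, so that of TCPOBOP replicate 3 was the narrowest. 3 stretches of the segment, of 23.2, 10.4 and 12.8 kb, lay under islands in all 8 libraries, the longest at chr8:94314801-94338000. In the longer fragments the whole segment was covered, by islands of 207.2 kb with TCPOBOP and 363.2 kb with vehicle, and the vehicle island ranked 31 of 17577.

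Irx5, which shapes the repolarisation gradient of the heart and acts in retinal bipolar cells, was covered to 77.2, 64 and 46.4% in the TCPOBOP livers, against 92.0, 75.6 and 42.0% in the vehicle livers. Its island ranked between 117 and 304 and carried the highest score of the window in the 3 TCPOBOP livers. Several of these margins were narrow: Irx5 and Irx3 ranked 152 and 170 in TCPOBOP replicate 2, 167 and 158 in vehicle replicate 2, and 165 and 162 in vehicle replicate 3. Which of the genes led is therefore given as a description and was not tested between treatments. The Irx5 island was 27.2 to 70.4 kb wide. By score per kb it ranked 963 of 13759, 257 of 10197 and 23 of 6295 in the TCPOBOP livers, against 65 of 10057, 699 of 14748 and 164 of 12430 in the vehicle livers. Stretches of 20.4 kb (chr8:94874001-94894400) and 7.2 kb (chr8:94897201-94904400) lay under islands in all 8 libraries.

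The desert between Irx3 and Irx5 was covered to 55.0, 68.1 and 30.8% in the TCPOBOP livers, against 86.9, 78.8 and 40.7% in the vehicle livers. It held 71.2 kb under islands in all 6 livers, in 6 pieces, against 15.6 kb in 1 piece in the chromosome 13 deserts. The longest pieces were 29.2 kb (chr8:94536801-94566000) and 24.8 kb (chr8:94572801-94597600), inside the desert and apart from both gene segments. The other pieces were 0.4 to 8 kb long. Islands wholly inside this desert reached rank 1340, 221 and 627 in the TCPOBOP livers and rank 158, 251 and 172 in the vehicle livers. The highest of these stood below the best gene island of the same list in 6 of 6 livers. In vehicle replicate 1, however, it stood above the Irx5 island (rank 158 against 304). The margin was narrow in vehicle replicate 3 (rank 172 against 165 for Irx5). In vehicle replicates 1 and 3 these desert islands were wider, at 165.6 and 80 kb, against 38.8 and 32.4 kb for Irx5. By score per kb they ranked 2746 and 4232, against 65 and 164 for Irx5. An island ended within 400 bp of 94630400 in 6 of the 8 lists, 4 of them livers.

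Irx6, a regulator of bipolar cell identity in the mouse retina, was covered to 54.4, 50.8 and 25.2% in the TCPOBOP livers, against 40.4, 48.0 and 44.4% in the vehicle livers. Its highest-scoring island ranked between 1313 and 4619, lower than those of Irx3 and Irx5 in every liver, and a stretch of 9.6 kb (chr8:95195201-95204800) was shared by all 8 libraries. Rank 1313, in vehicle replicate 2, belonged to a 66.8 kb island (chr8:95242001-95308800) that lay mostly past the segment. The island over the shared stretch in that liver ranked 3067. With each list shortened to the same covered length, 174 Mb, the Irx6 values were 15.6, 20 and 25.2% with TCPOBOP and 33.6, 31.6 and 44.4% with vehicle. There the treatments no longer overlapped and the difference was -16.3 percentage points (exact permutation p = 0.1, the smallest possible), against -0.8 with all islands. This p was not adjusted over the 11 segments. In 2 other settings the treatments overlapped. The difference was -4.67 with islands under a score minimum common to all lists removed, and -6.53 with both lists of a ChIP sample joined (exact permutation p = 0.8 for each).

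Ordered by the mean over 6 livers, Irx3 led with 83.1 ± 14.9% and was followed by Irx2 at 66.2 ± 19.7% and Irx5 at 66.2 ± 19.3%. Irx6 came next at 43.9 ± 10.4%, then Irx4 at 41.8 ± 13.5% and Irx1 at 31.6 ± 26.9% (SD, n = 6 each). The step between Irx3 and Irx2 was 16.9 ± 8.75 percentage points within a liver (SD, n = 6) and positive in 6 of 6 livers. That between Irx5 and Irx6 was 22.3 ± 17.8 percentage points and positive in 5 of 6. The steps between Irx2 and Irx5, Irx6 and Irx4, and Irx4 and Irx1 were smaller than their SD. Without the 2 livers of replicate 1, Irx1 stood between Irx5 and Irx6. The order was read from these values, depends on where the 100 kb segments were placed, and carries no test.

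**Figure D3:**
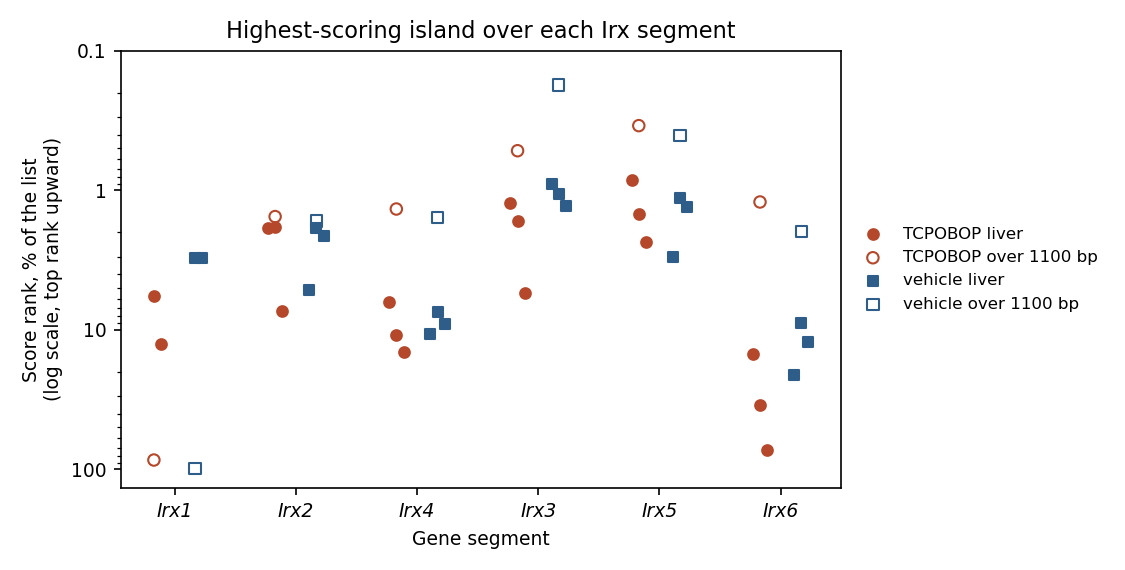
Score rank of the highest-scoring island over each gene segment, as a percent of its list on a log axis with the top rank upward; filled symbols are livers and open symbols the longer fragments, with TCPOBOP left of vehicle within each gene. Irx3 and Irx5 islands lie within the upper 5.50% of every list, while Irx1 islands of the longer fragments lie near the bottom of theirs; no Irx1 island is listed for the 2 livers of replicate 1.

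Pooled within a window, the gene segments were covered more than the deserts in each of the 6 livers, though not every gene was. On chromosome 13 the 3 gene segments together were covered to 44.1, 59.2 and 35.7% in the TCPOBOP livers and 50.3, 51.9 and 38.0% in the vehicle livers. The deserts there were covered to 20.8, 15.8 and 4.98% in the TCPOBOP livers and 18.2, 25.4 and 9.53% in the vehicle livers. The means were 46.5 ± 8.92% for gene segments and 15.8 ± 7.47% for deserts, a difference of 30.8 ± 6.93 percentage points (SD, n = 6, two-sided exact sign-flip permutation p = 0.031). On chromosome 8 Irx3 and Irx5 together averaged 74.6 ± 16.7% and the desert 60.03 ± 21.9%, a difference of 14.6 ± 8.53 percentage points (SD, n = 6, exact sign-flip permutation p = 0.031). Irx5 alone was covered less than this desert in TCPOBOP replicate 2 (64 against 68.1%) and vehicle replicate 2 (75.6 against 78.8%), and Irx1 less than the desert beside it in both livers with the gap. Irx4 stood at the level of the desert beside it in vehicle replicate 2 (37.2 against 37.4%). The chromosome 8 difference ranged from 5.64 to 25.6 percentage points, and with gene segments widened by 50 kb on each side it was 3.63 (exact sign-flip permutation p = 0.28125). In the longer fragments the chromosome 13 gene segments were covered to 67.2% with TCPOBOP and 67.6% with vehicle, against 76.3 and 81.5% of the deserts, with the Irx1 gap included. With both lists of a ChIP sample joined, the chromosome 13 difference was 17.7 percentage points (exact sign-flip permutation p = 0.125). Without the 2 livers of replicate 1 it was 32.3 with the 600 to 1100 bp lists.

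**Figure D4:**
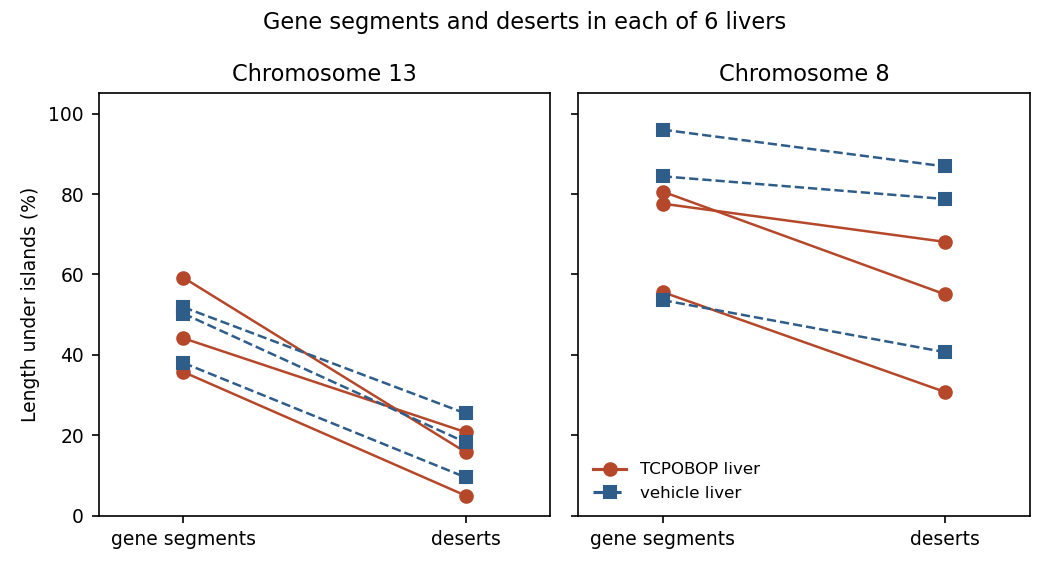
Percent of length under islands for the gene segments and the deserts of each window, with 1 line per liver (solid red circles TCPOBOP, dashed blue squares vehicle). Gene segments lie above deserts on each of the 6 lines in both panels, by 23.4 to 43.4 percentage points on chromosome 13 and 5.64 to 25.6 on chromosome 8.

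In 10 kb bins, 18 of the 69 bins of the chromosome 8 window (26.1%) were covered to at least 50% in all 6 livers, against 2.86% of the autosomal bins. On chromosome 13 the count was 5 of 140 (3.57%), near that background, and it was 10 without vehicle replicate 3 and 8 without TCPOBOP replicate 3, where fewer livers are asked for. By segment, such bins numbered 5 of 10 over Irx3, 4 of 10 over Irx5, 2 of 10 over Irx2, 2 of 10 over Irx4, 0 of 10 over Irx1 and 1 of 10 over Irx6. The 0 over Irx1 follows from the 2 livers with the gap, since 2 of its bins were covered to 100% in the other 4. Without those 2 livers the count on chromosome 13 was 7. The desert between Irx3 and Irx5 held 9 of 42, that between Irx2 and Irx4 1 of 54 and that between Irx1 and Irx2 0 of 56. No bin of the chromosome 8 window was free of islands in all 6 livers, while 51 of the 140 on chromosome 13 were.

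The comparison of treatments asked whether cover of the clusters differed 3 h after TCPOBOP, and no segment passed 0.05, which 3 livers against 3 cannot reach. The chromosome 8 window averaged 55.6 ± 18.1% with TCPOBOP and 71.1 ± 25.4% with vehicle (SD, n = 3 each), and the treatments differed by -15.5 percentage points (two-sided exact permutation p = 0.4, adjusted over 2 windows 0.7). The chromosome 13 window averaged 20.8 ± 8.01% with TCPOBOP and 23.9 ± 7.79% with vehicle (SD, n = 3 each), and the treatments differed by -3.12 percentage points (exact permutation p = 0.7, adjusted 0.7). Both differences were below the SD within a treatment. At equal covered length they were -13.4 and 0.619 percentage points, so the sign on chromosome 13 was not kept. It also turned without TCPOBOP replicate 3 (1.5) and without vehicle replicate 2 (0.452), and it was -5.03 without the 2 livers of replicate 1.

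Among the 6 genes the differences of TCPOBOP minus vehicle were -5.6 percentage points for Irx1, 0.933 for Irx2, 3.6 for Irx4, -6.13 for Irx3, -7.33 for Irx5 and -0.8 for Irx6. Their exact permutation p-values lay between 0.5 and 1 (n = 3 each), and treatments overlapped at each gene. The deserts differed by -7.29 percentage points between Irx1 and Irx2, -0.346 between Irx2 and Irx4 and -17.5 between Irx3 and Irx5 (exact permutation p = 0.2, 1 and 0.4). The 70 kb past Irx5 were covered to 65.7, 43.4 and 0% with TCPOBOP, against 100, 73.7 and 21.1% with vehicle (difference -28.6, exact permutation p = 0.4). That difference was -12 with islands under a score minimum common to all lists removed, and ranged from -50.5 without vehicle replicate 3 to -10.4 without TCPOBOP replicate 3. The desert between Irx3 and Irx5 ranged from -31.5 without vehicle replicate 3 to -7.19 without TCPOBOP replicate 3. Without the 2 livers of replicate 1 the Irx1 difference was -8.4.

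**Figure D5:**
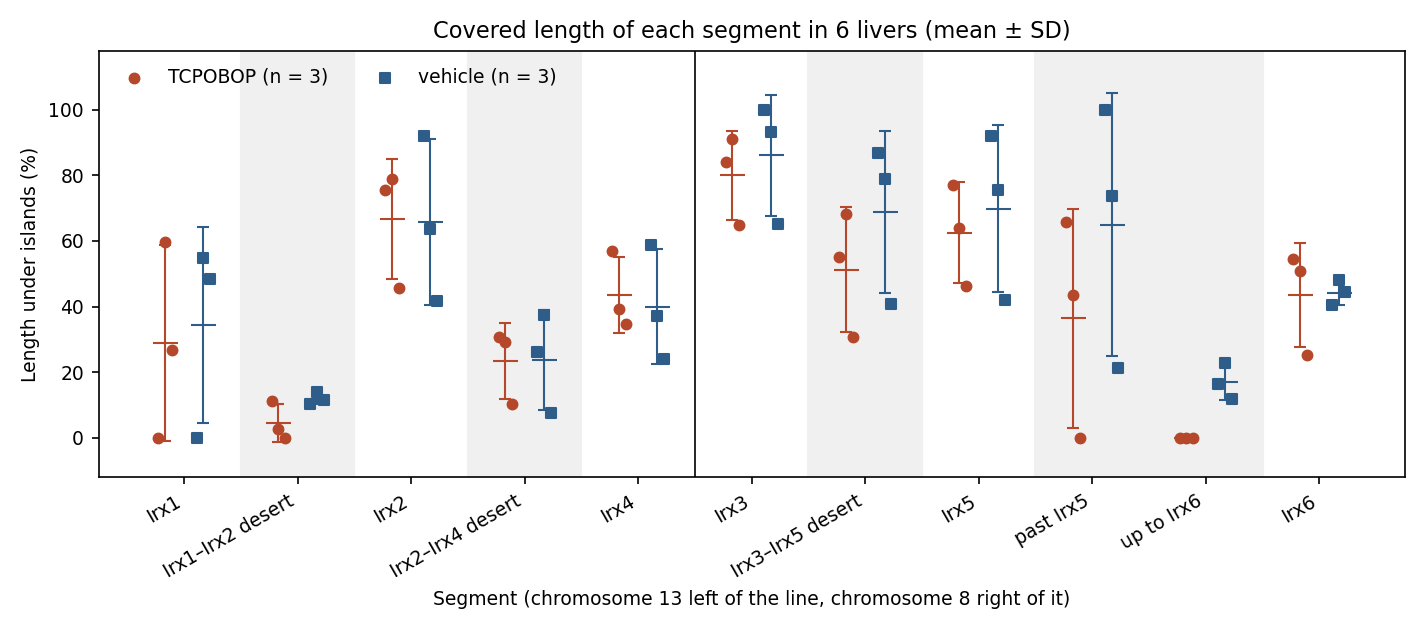
Percent of each segment's length under islands in the 3 TCPOBOP livers (red circles) and the 3 vehicle livers (blue squares), with mean and SD; shaded columns are stretches outside gene segments. Treatments overlap everywhere except in the stretch up to Irx6, where the TCPOBOP livers are at 0% and the vehicle livers between 11.7 and 22.9%.

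1 of 11 segments did not overlap between treatments, the 150 kb from the end of the chromosome 8 window to the Irx6 segment. With random labels alone, 3 livers separate fully from 3 with probability 0.1, so 1 of 11 is not read as a result. This stretch was covered to 0, 0 and 0% in the TCPOBOP livers, against 16.5, 22.9 and 11.7% in the vehicle livers. The difference was -17.1 percentage points (exact permutation p = 0.1, which is the smallest that 3 livers against 3 allow, and 1 after adjustment over 11 segments). The vehicle islands there were 6 to 24.8 kb wide and ranked 7156 of 10057, 11165 to 13822 of 14748, and 4037 of 12430, so 4 of the 5 islands stood at 71.2% of their list or lower. At equal covered length only vehicle replicate 3 kept an island (11.7%), and with the score minimum vehicle replicate 2 was also at 0%. The longer fragments covered 95.2% of this stretch with TCPOBOP and 95.5% with vehicle.

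By 10 kb bin, 9 of the 209 bins (4.31%) had the 3 TCPOBOP livers all below the 3 vehicle livers and 0 had them all above, against 0.676% and 0.224% of the autosomal bins. Bins can separate only where islands occur. Among bins touched by islands in at least 3 livers, 9 of 109 (8.26%) had the TCPOBOP livers all below and 0 all above, against 4.62% and 1.53% of such autosomal bins. Of the 9 bins, 6 lay in the desert between Irx3 and Irx5, 2 in the desert between Irx1 and Irx2 and 1 at the edge of the Irx5 segment. At equal covered length the count was 3 on chromosome 8 and 0 on chromosome 13, and with both lists of a ChIP sample joined the count was 0 on both. Joining adds a list to replicate 1 of each treatment only. It lifts TCPOBOP replicate 1 to 94.1% of the chromosome 8 window and 74.3% of that on chromosome 13. That setting could hardly leave all 3 TCPOBOP livers below, so its 0 decides nothing. On chromosome 8 the count was 17 without vehicle replicate 3 and 13 without TCPOBOP replicate 2, which loosens the rule.

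The longest run was 3 bins just before Irx5, chr8:94810001-94840000, picked after its values were seen and given as a description without a test. It was covered to 0, 0 and 0% in the TCPOBOP livers, against 100, 90.7 and 96.0% in the vehicle livers. The vehicle islands over it ranked 1996 of 10057, 3500 and 7637 of 14748, and 2436 of 12430. At equal covered length the vehicle values were 100, 62.7 and 96.0% and the TCPOBOP values were 0%. In the longer fragments of the same ChIP samples the run was covered to 100% in the TCPOBOP liver and 100% in the vehicle liver. Bins at 50% or more in the 3 vehicle livers and at 0% in the 3 TCPOBOP livers made up 0.0963% of the autosomal bins, and these 3 formed the single run of at least 3 bins among them.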

How the data were processed

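The deposited file of each library lists that library's islands, each with the authors' score. Per the submitters' processing notes, Bowtie2 2.3.2, SICER 1.1 and build mm9 were used, with no roles given, and the names of the files give windows of 400 bp and gaps of 2400 bp. An input, if used, was not given in the sources used here. Scores served to rank islands within a list, and across lists only for a score minimum of 84.6, the highest of the lowest scores of the 6 livers. Covered percent per segment and per 10 kb bin was computed with Python 3.11.15, numpy 2.4.6, pandas 2.3.3 and scipy 1.17.1, figures with matplotlib 3.10.9, and code was tested on simulated islands. Treatments were compared by two-sided exact permutation over 20 labellings, and regions within a liver by exact sign flips over 64. Benjamini-Hochberg adjustment was used. p-values measure the spread between separate animals. The named genes are the 6 members and their neighbours. Members, segments and tests were chosen with earlier results of these data known. Alternatives were a score minimum, equal covered length, merged lists, other segment or bin sizes, and livers left out.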

Additional observations from a re-analysis of the deposited data

How the results depend on the processing

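Segment edges are approximate, depth is unknown, and 3 livers against 3 allow no p under 0.1. With the score minimum the signs turned for Irx1 (5.2 percentage points), Irx2 (-4.53) and Irx4 (-2.8), and at equal covered length for the chromosome 13 window (0.619) and the desert between Irx2 and Irx4 (4.89); the cause was not tested. With 1 liver left out the treatment difference ranged from -7.28 to 1.5 for the chromosome 13 window, -22.8 to 8.8 for Irx1, -11.1 to 14.1 for Irx2, -8.47 to 6.49 for the desert between Irx2 and Irx4, -4.4 to 13 for Irx4, -16.6 to 1.47 for Irx3, -21.3 to 3.73 for Irx5 and -6.27 to 8.33 for Irx6, which was -8.2 without replicate 1 of both treatments. It kept its sign for the chromosome 8 window, from -29.8 to -5.11.

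Gene segments exceeded deserts by 28.2 to 32.2 percentage points on chromosome 13 and 12.4 to 16.4 on chromosome 8 with 1 liver left out, and by 32.3 and 13.2 without replicate 1 of both treatments, a setting chosen after the data had been seen. The windows exceeded the rest of their chromosome by 11.9 to 15 and 48.6 to 58.3, and by 12.3 and 47.2 without replicate 1. The chromosome 8 window exceeded that on chromosome 13 by 36.0 to 44.5, and by 35.5 without replicate 1. These lost their call because 5 livers allow no p under 0.0625 and 4 none under 0.125. The differences of 17.7 on chromosome 13 with merged lists and 3.63 on chromosome 8 with widened gene segments also missed the threshold; the cause was not tested.

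Bins covered in all 6 livers numbered 12 on chromosome 13 with any overlap, 6 on chromosome 8 with whole bins, and 5 to 10 and 18 to 24 with 1 liver left out. Bins with TCPOBOP below vehicle numbered on chromosome 13 1 at 5 kb, 1 at 20 kb, 0 at equal covered length, 0 with the score minimum and 0 with merged lists. On chromosome 8 they numbered 4 at 20 kb, 3 at equal covered length and 0 with merged lists, which add to replicate 1 only. With 1 liver left out, which loosens the rule, they numbered 3 to 6 on chromosome 13 and 7 to 17 on chromosome 8, and bins above 0 to 3 and 0 to 2. Without replicate 1 there were 9 below and 3 above on chromosome 13 and 1 above on chromosome 8.

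Between livers with the same number, deviations from the treatment means correlated at 0.0483, 0.0337 and 0.172, all low. TCPOBOP replicates 1 and 3 each correlated best with the vehicle liver of their number, and TCPOBOP replicate 2 with vehicle replicate 1 (0.0929). The Irx1 gap was shared by replicate 1 of both treatments, and replicate 3 of both had the lowest cover of the windows. Whether the numbers pair the livers was not settled, and the main tests did not use them. The replicate block left the window differences at -15.5 and -3.12 by construction (exact sign-flip permutation p = 0.25 and 0.5). Since 3 pairs allow no p under 0.25, it could change no call.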
